A study of Homo sapiens with 6 samples.

Results

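The RNA of pluripotency and breast stem cell genes was examined in BT474 cells, a breast cancer line of a primary tumor that carries both the estrogen receptor and HER2, after stable transfection of the long non-coding RNA NR2F1-AS1. The genes were POU5F1, NANOG, SOX2, SOX4, SOX9, KLF4, KLF5, MYC, PROM1 and CD44, and all probes filed under these names were taken, 13 of 58201 non-control probes and 10 of 43317 gene names. Control cells carried an empty pcDNA3.1 plasmid, BT474-Var1 cells the long variant 1 of NR2F1-AS1 in pcDNA3.1/Hygro(+), and BT474-Var4 cells the short variant 4 in pcDNA3.1-P2A-eGFP. Which of the empty plasmid versions the Control cells carried is not given, and the variants sat in different plasmids, so that plasmid, selection marker and variant cannot be told apart in a difference from Control. All were kept in RPMI-1640 with fetal serum. Each of the 3 groups had 2 one-color Agilent arrays, A and B. As the study describes, the transfected cells passed antibiotic selection, dwindled to few cells and regrew from colonies, and neither the number of colonies nor the age of the cultures at RNA extraction is given for the arrays. The labels do not say whether A and B came from separate cultures, so the p-values measure only the spread between these arrays. All 6 arrays lay on 1 slide with the BT474-Var1 arrays in another column of it, so slide column and the effect of variant 1 cannot be told apart. The Control arrays lay in rows 1 and 2 and the arrays of both variants in rows 3 and 4. Slide row and a difference from Control therefore cannot be told apart either.

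POU5F1 (OCT4), SOX2 and NANOG form the core transcription factor circuit that keeps embryonic stem cells undifferentiated, and KLF4 and MYC can join POU5F1 and SOX2 to reprogram differentiated cells. SOX9, SOX4 and KLF5 act in epithelial progenitors, and CD44, a hyaluronan receptor, and PROM1 (CD133), a membrane glycoprotein, are surface proteins used to enrich breast cancer stem cells. Adult breast epithelium expresses the core factors weakly, if at all, while MYC, KLF5, SOX4 and SOX9 are common in luminal tumor cells.

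Levels are given as the log2 intensity minus the 75th percentile of the same array, so that 0 is the 75th percentile. A level of 1 probe was compared only with the same probe on other arrays. The NR2F1-AS1 probe A_19_P00320140 read -0.42 and -0.51 on the BT474-Var1 arrays and -6.62 to -5.73 on the other 4, while A_24_P51080 read 1.67 and 1.50 on the BT474-Var4 arrays and -6.42 to -4.25 on the other 4. Each of these probes was thus bright in 1 group alone. Of the other NR2F1-AS1 probes, A_22_P00006112 read -0.19 and -0.22 in BT474-Var1 cells and -4.31 to -3.61 on the other arrays. A_22_P00006111 read 3.01 and 3.02 in BT474-Var4, -1.69 and -1.52 in BT474-Var1, and -5.76 and -4.16 in Control cells. It was well above background on 5 arrays, and BT474-Var1 exceeded Control by a fitted 3.36 (adjusted p = 0.0134, limma). Luminal markers fixed for the line, such as KRT8, ESR1 and ERBB2, were well above background on all 6 arrays for all 15 genes listed, and the dimmer ACTB probe differed by 0.14 (adjusted p = 0.137, limma) and 0.02 (adjusted p = 0.834, limma) from Control in BT474-Var1 and BT474-Var4 cells.

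Of the 13 probes, the coding ones for KLF4, POU5F1 and PROM1 are shown because they set a probe that was measured well beside probes that were not. Each is a 60-base probe placed on hg19, the build of the array files, and is printed 5′ to 3′ in the sense of the transcript with no letters set apart. The KLF4 probe (chr9:110248049-110248108, minus strand) was bright on all arrays. The POU5F1 probe A_24_P144601 (chr6:31133025-31133368, minus strand) spans 344 bases of the genome with 60 bases, and the PROM1 probe lies at chr4:15982046-15982105 on the minus strand.
KLF4 A_23_P32233: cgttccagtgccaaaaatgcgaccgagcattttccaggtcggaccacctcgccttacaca
POU5F1 A_24_P144601: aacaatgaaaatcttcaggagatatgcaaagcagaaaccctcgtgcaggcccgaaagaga
PROM1 A_33_P3389842: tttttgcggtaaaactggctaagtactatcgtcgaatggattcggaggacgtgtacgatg

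The 250 bases before the start of NANOG and SOX2 are shown because these members had a fitted difference of 2-fold or more at an adjusted p under 0.05 (limma). The NANOG probe lay close to background outside BT474-Var1 cells. The sequences come from RefSeq on GRCh38.p14, chr12:7789152-7789401 and chr3:181711675-181711924, both on the plus strand, and are therefore on another build than the probes. Capitals mark ATGCAAA or its reverse complement, the core of the octamer that POU factors such as POU5F1 bind.
NANOG: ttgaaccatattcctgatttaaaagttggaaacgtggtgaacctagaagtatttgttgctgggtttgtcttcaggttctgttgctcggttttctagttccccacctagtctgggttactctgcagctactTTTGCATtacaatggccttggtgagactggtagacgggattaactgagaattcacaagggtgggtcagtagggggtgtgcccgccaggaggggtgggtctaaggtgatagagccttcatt
SOX2: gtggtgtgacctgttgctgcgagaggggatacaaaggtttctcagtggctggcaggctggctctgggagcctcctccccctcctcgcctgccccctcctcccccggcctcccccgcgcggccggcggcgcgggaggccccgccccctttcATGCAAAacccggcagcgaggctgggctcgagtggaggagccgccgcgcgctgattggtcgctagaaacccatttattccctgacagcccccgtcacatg
The octamer core lies 120 to 114 bases before the start of NANOG, followed by ACAATG, a SOX-type motif, at 112 to 107 bases, and 100 to 94 bases before the start of SOX2. Among 35116 RefSeq upstream windows of the same length, 3.94% held ATGCAAA on either strand, 9.29% held ACAATG and 0.54% held both. The NANOG window holds both motifs, which do not overlap, and the SOX2 window holds ATGCAAA alone. These matches describe the letters and do not show binding. Of the other members with an upstream entry, KLF5 held ACAATG on the opposite strand, 58 to 53 bases before its start, and KLF4, SOX4, PROM1 and CD44 held neither motif.

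A measurable probe was found for 9 of the genes. Testing required that the scanner software marked a probe well above background on each array of 1 group or more, which held for 10 of the 13 probes, of 9 genes, against 31858 of all probes. PROM1, the second POU5F1 probe and the second MYC probe did not reach this. NANOG entered the test through its BT474-Var1 arrays alone, so that its difference from the other groups was partly set by the filter, and counts of member probes are given with and without it.

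**Figure D1:**
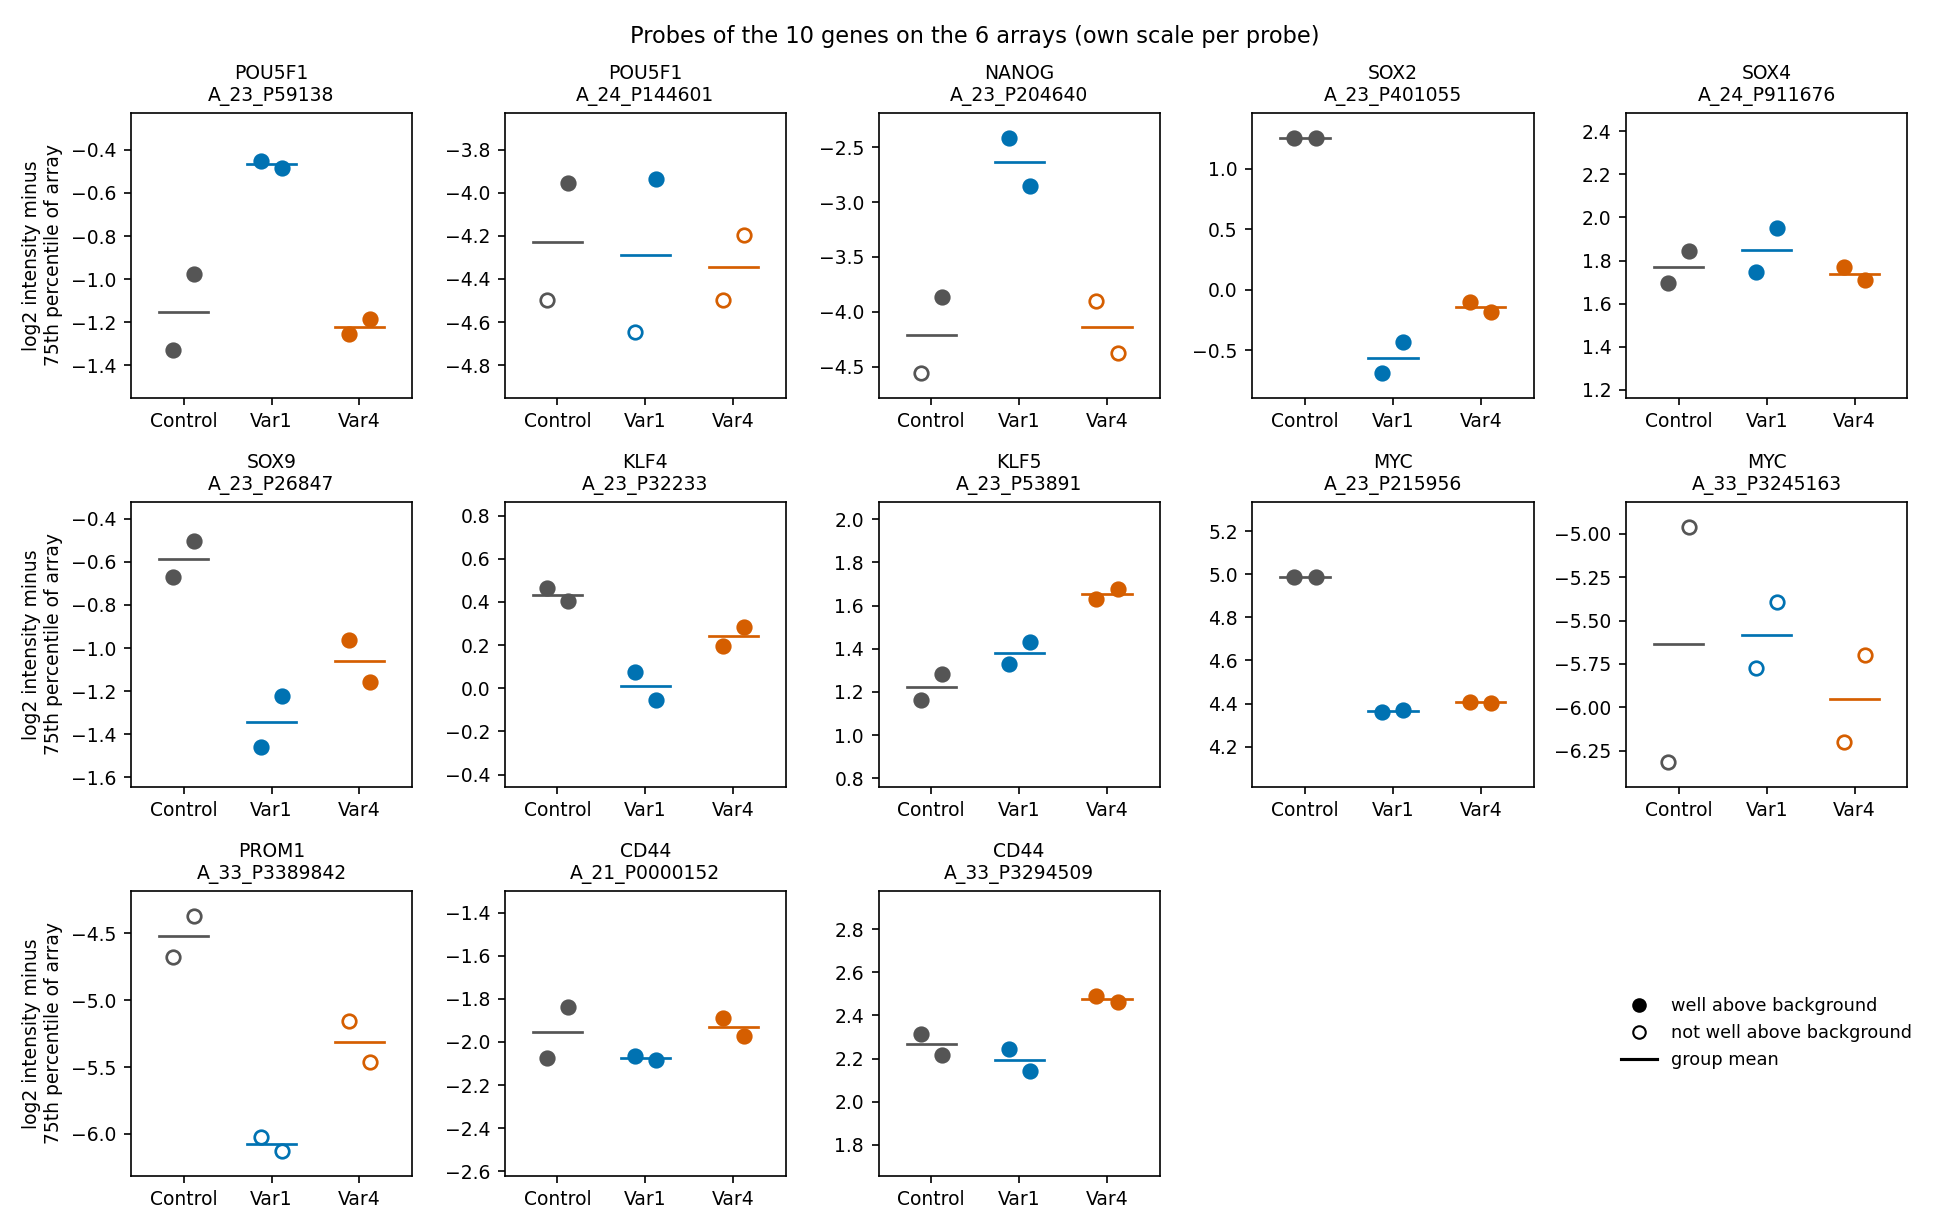
Level of each of the 13 probes (log2 intensity minus the 75th percentile of the array; each panel has its own scale) on the 2 Control, 2 BT474-Var1 and 2 BT474-Var4 arrays. Points are single arrays, open where the spot was not well above background, and lines are group means; SOX2 sat at 1.26 and 1.25 in Control and below 0 on the other 4 arrays.

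In BT474-Var1 cells, SOX2, SOX9, MYC and KLF4 were lower than in Control cells and POU5F1 and NANOG were higher, 6 of the 10 tested probes and 5 of the 9 other than NANOG. In BT474-Var4 cells SOX2 and MYC were lower and KLF5 was higher, 3 of the 10. The tests were those of limma, with p adjusted over all tested probes, and "passed" stands for an adjusted p under 0.05. For the first comparison, 2 member probes passed higher beside 14.1% of all tested probes, 4 passed lower beside 20.3%, and 2 passed at 2-fold or more beside 3.94%. Without NANOG 1 passed higher (POU5F1) and 1 at 2-fold or more (SOX2). For the second, 1 passed higher beside 9.87%, 2 passed lower beside 14.3%, and 1 passed at 2-fold or more beside 3.17%. The median difference of the 10 probes was -0.10 and -0.05 in the respective populations, and that of all tested probes was -0.04 and -0.08. Both comparisons use the same Control arrays. Without the Control A array, 2 member probes passed for BT474-Var1 and 0 for BT474-Var4 against Control, of which the latter had 6 with an unadjusted p under 0.05 in limma. The share of all tested probes that passed was then 6.46% and 1.91%.

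**Figure D2:**
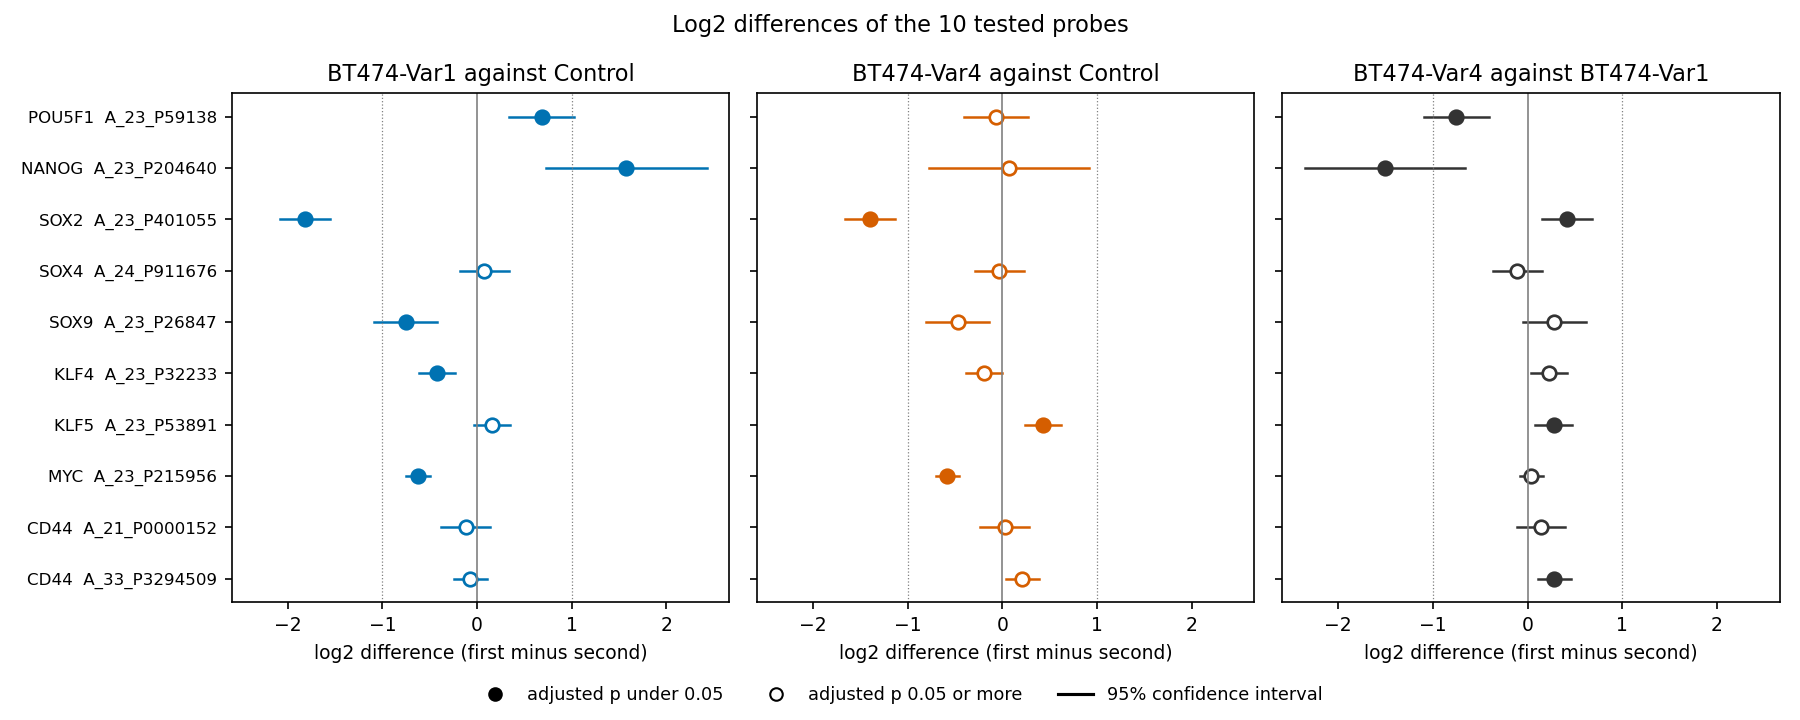
Log2 differences of the 10 tested probes in the 3 comparisons (x axis, first group minus second), with 95% confidence intervals from limma; filled points passed an adjusted p of 0.05 and dotted lines mark 2-fold. SOX2 lay beyond the dotted line against Control in both populations, at -1.82 and -1.40, and POU5F1 and NANOG lay above 0 in BT474-Var1 against Control and below 0 in BT474-Var4 against BT474-Var1.

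SOX2 fell in both populations. Its probe A_23_P401055 (hg19 chromosome 3, 181431877 to 181431936) read 1.26 and 1.25 in Control, -0.69 and -0.43 in BT474-Var1, and -0.10 and -0.18 in BT474-Var4 cells, always well above background. The 3 groups did not overlap, with Control highest and BT474-Var1 lowest. SOX2 was 3.52-fold lower in BT474-Var1 (log2 difference -1.82, SE 0.10, adjusted p = 0.00297) and 2.63-fold lower in BT474-Var4 cells (-1.40, adjusted p = 0.00448), the 89th and 311th lowest of the 31858 differences. It was higher in BT474-Var4 than BT474-Var1 cells by 0.42 (95% confidence interval 0.15 to 0.68, adjusted p = 0.0308). The fall in BT474-Var1 cells passed under all 15 alternatives run, and that in BT474-Var4 cells under all but that without Control A (-1.40, adjusted p = 0.0533). The difference between the populations did not pass without Control A (adjusted p = 0.0797), Control B (0.071), BT474-Var1 A (0.0709), BT474-Var4 A (0.117) or BT474-Var4 B (0.0926), nor when the letters A and B were used as a block (0.0573), and normexp background correction gave 0.28. In all, the difference between the populations passed under 6 of the 15 alternatives run. SOX2 lies within the transcribed region of the long non-coding RNA SOX2-OT, whose 4 probes, looked at after the values were known, were not well above background on any array.

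POU5F1 was higher in BT474-Var1 than in the other cells. The probe A_23_P59138 (chromosome 6, 31132178 to 31132237, minus strand) read -1.33 and -0.97 in Control, -0.45 and -0.48 in BT474-Var1, and -1.25 and -1.18 in BT474-Var4 cells, with each of the 6 arrays well above background. Both BT474-Var1 arrays lay above the other 4, and Control and BT474-Var4 arrays overlapped. POU5F1 was 1.61-fold higher in BT474-Var1 than Control cells (log2 difference 0.68, SE 0.13, adjusted p = 0.0197), differed by -0.07 (95% confidence interval -0.41 to 0.27, adjusted p = 0.727) in BT474-Var4 cells, and was lower in BT474-Var4 than BT474-Var1 cells by -0.75 (adjusted p = 0.0132). The rise in BT474-Var1 cells was 0.35 with normexp and did not pass without Control A, BT474-Var1 A or BT474-Var1 B. It also did not pass under contrasts of a one-way analysis of variance (adjusted p = 0.0624) or when dim probes were also tested (0.08). The difference between the populations was -0.41 with normexp and passed under 10 of the 15 alternatives run. It did not pass without any 1 of their 4 arrays or when dim probes were also tested.

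The second POU5F1 probe, A_24_P144601, shown above, read -4.50 and -3.96 in Control, -4.65 and -3.94 in BT474-Var1, and -4.50 and -4.19 in BT474-Var4 cells. It was well above background on Control B and BT474-Var1 B alone and was not tested, so the higher reading in BT474-Var1 cells rests on 1 probe. POU5F1 has near-identical retrogene copies elsewhere in the genome, and the signal of its probes cannot be assigned to the POU5F1 locus with certainty.

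NANOG was near background. The probe A_23_P204640 (chromosome 12, 7948487 to 7948546) read -4.56 and -3.86 in Control, -2.41 and -2.85 in BT474-Var1, and -3.90 and -4.38 in BT474-Var4 cells. It was well above background on Control B, on both BT474-Var1 arrays and on neither BT474-Var4 array, and only the BT474-Var1 arrays stood apart from the rest. The fitted log2 difference between BT474-Var1 and Control cells was 1.58 (SE 0.32, adjusted p = 0.0237), and the level in BT474-Var1 exceeded that in BT474-Var4 cells by at least 2.18-fold (means -2.63 and -4.14, adjusted p = 0.0227). No fold is given between BT474-Var4 and Control cells, since the bound lay under 1. With normexp the differences of BT474-Var1 from Control and from BT474-Var4 cells were 0.27 and 0.26 in size, and with A and B as a block neither passed (adjusted p = 0.0531 and 0.0502). The first did not pass without Control A (adjusted p = 0.0963), BT474-Var1 A (0.105) or BT474-Var1 B (0.0615), under the analysis of variance (0.0786) or with dim probes (0.0807), and the second without any 1 array of the 2 populations (0.0518 to 0.103), under the analysis of variance (0.0766) or with dim probes (0.074). NANOG also has near-identical pseudogene copies that its probe may read.

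SOX9, a factor of luminal and other epithelial progenitors, was lower in BT474-Var1 cells. Its probe A_23_P26847 (chromosome 17, 70121841 to 70121900) read -0.67 and -0.50 in Control, -1.46 and -1.22 in BT474-Var1, and -0.96 and -1.16 in BT474-Var4 cells. No group overlapped another, with BT474-Var4 between the other groups. SOX9 was 1.69-fold lower in BT474-Var1 than Control cells (log2 difference -0.75, SE 0.13, adjusted p = 0.0149). For BT474-Var4 against Control, -0.47 did not pass (95% confidence interval -0.81 to -0.14, adjusted p = 0.0592), though it did with normexp (-0.26, adjusted p = 0.00532), and the difference between the populations was 0.28 (adjusted p = 0.141). Normexp gave -0.36 in BT474-Var1 cells, and the call was lost without Control A (adjusted p = 0.0673), Control B (0.0771) or BT474-Var1 A (0.0646), under the analysis of variance (0.0509) and with dim probes (0.067).

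SOX4, which is widely expressed in epithelial tumors, did not pass in any comparison. A_24_P911676 (chromosome 6, 21598001 to 21598060) read 1.70 and 1.85 in Control, 1.75 and 1.95 in BT474-Var1, and 1.77 and 1.71 in BT474-Var4 cells, with all groups overlapping. The difference from Control was 0.08 in BT474-Var1 (95% confidence interval -0.18 to 0.34, adjusted p = 0.579) and -0.03 in BT474-Var4 cells (-0.29 to 0.23, adjusted p = 0.832).

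KLF4 was lower in BT474-Var1 cells and KLF5 was higher in BT474-Var4 cells. The KLF4 probe A_23_P32233 read 0.46 and 0.41 in Control, 0.08 and -0.06 in BT474-Var1, and 0.20 and 0.28 in BT474-Var4 cells. The groups did not overlap, and the order was that of SOX2 and SOX9, Control first and BT474-Var1 last. KLF4 was 1.34-fold lower in BT474-Var1 than Control cells (log2 difference -0.42, SE 0.07, adjusted p = 0.0156), a call lost without Control A (adjusted p = 0.0967), Control B (0.0683) or BT474-Var1 B (0.0617). That call was kept under 11 of the 15 alternatives run. In BT474-Var4 cells the difference was -0.19 (95% confidence interval -0.39 to -0.00, adjusted p = 0.122), and the populations differed by 0.23 (adjusted p = 0.0628, and 0.0133 with normexp).

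KLF5, a KLF factor of proliferating epithelium, was read by A_23_P53891 (chromosome 13, 73650979 to 73651038), at 1.16 and 1.28 in Control, 1.33 and 1.43 in BT474-Var1, and 1.63 and 1.68 in BT474-Var4 cells. The groups did not overlap, with Control lowest and BT474-Var4 highest. KLF5 was 1.35-fold higher in BT474-Var4 than Control cells (log2 difference 0.43, SE 0.07, adjusted p = 0.0212) and higher than in BT474-Var1 cells by 0.27 (adjusted p = 0.0399), and in BT474-Var1 cells it differed from Control by 0.16 (95% confidence interval -0.04 to 0.35, adjusted p = 0.165). The rise against Control was lost without Control A (adjusted p = 0.109), Control B (0.0701), BT474-Var1 A (0.0505), BT474-Var4 A (0.0731) or BT474-Var4 B (0.0962). That rise passed under 9 of the 15 alternatives run, and the difference from BT474-Var1 cells under 6 of them. The latter was lost with any single array left out, under quantile normalization (adjusted p = 0.078) and when dim probes were also tested.

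MYC was lower in both populations to a like extent. The probe A_23_P215956 was spotted 10 times on each array, and after 9 outlier spots were left out over the 6 arrays, 8 or 9 spots per array remained. Their means were 4.99 and 4.99 in Control, 4.36 and 4.37 in BT474-Var1, and 4.41 and 4.40 in BT474-Var4 cells. The SD among the spots of 1 array was 0.04 to 0.09, and the dimmest spot used on a Control array (4.88) lay above the brightest used in BT474-Var1 (4.46) or BT474-Var4 cells (4.49). Spots of 1 array share its RNA and are not replicates. MYC was 1.54-fold lower in BT474-Var1 (log2 difference -0.62, SE 0.05, adjusted p = 0.00395) and 1.50-fold lower in BT474-Var4 cells (-0.58, adjusted p = 0.00539). The populations differed by 0.04 (95% confidence interval -0.08 to 0.16, adjusted p = 0.514), which the analysis of variance called (adjusted p = 0.0152) and quantile normalization turned to -0.06 (adjusted p = 0.335). The fall in BT474-Var1 cells passed under all 15 alternatives run while the BT474-Var4 call was lost without Control A (adjusted p = 0.0565) and when dim probes were also tested (0.0579). A second MYC probe, A_33_P3245163, was designed on another sequence entry and lies upstream of the other on chromosome 8. It was not well above background on any array, between -6.32 and -4.96.

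**Figure D3:**
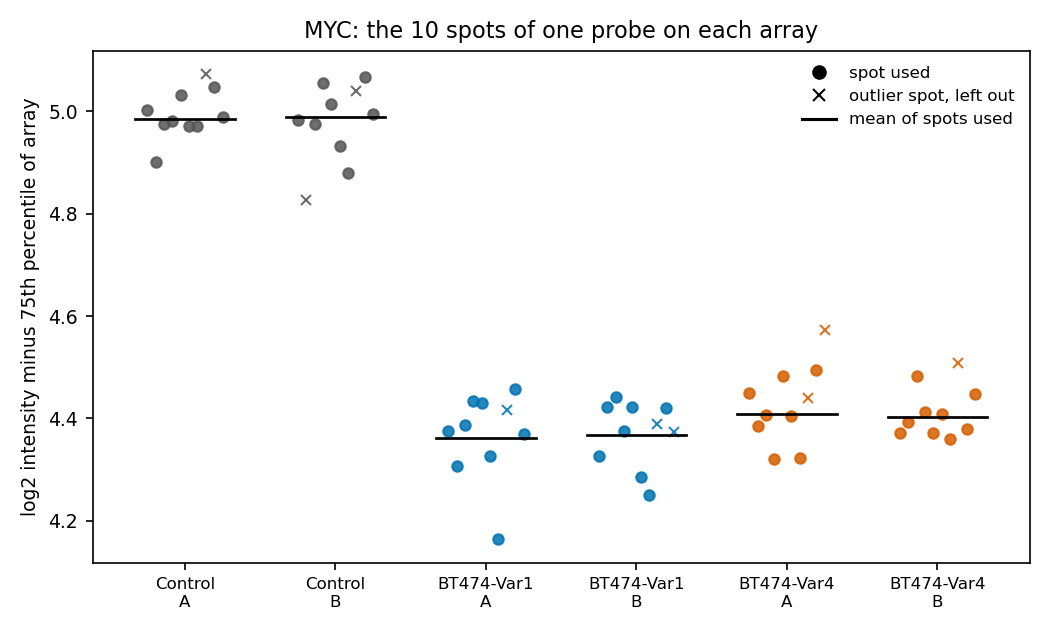
The 10 spots of the MYC probe A_23_P215956 on each of the 6 arrays (y axis, log2 intensity minus the 75th percentile of the array). Crosses are outlier spots that were left out and lines are the means of the spots used; all spots of the BT474-Var1 and BT474-Var4 arrays lay below all spots of the Control arrays.

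CD44 differed little between the groups. The probe A_33_P3294509 (chromosome 11, 35253812 to 35253871) read 2.31 and 2.22 in Control, 2.24 and 2.14 in BT474-Var1, and 2.49 and 2.46 in BT474-Var4 cells, with BT474-Var4 above the other arrays. CD44 was 1.22-fold higher in BT474-Var4 than BT474-Var1 cells (log2 difference 0.28, SE 0.07, adjusted p = 0.0293), and the differences from Control were -0.07 (95% confidence interval -0.25 to 0.10, adjusted p = 0.449) in BT474-Var1 and 0.21 (0.04 to 0.39, adjusted p = 0.0832) in BT474-Var4 cells. The call between the populations was kept under 6 of the 15 alternatives run. It was lost with any single array left out, under quantile normalization (adjusted p = 0.0641) and when dim probes were also tested. The second probe, A_21_P0000152 (35244791 to 35244850), was designed on another CD44 transcript and read -2.08 and -1.84 in Control, -2.07 and -2.08 in BT474-Var1, and -1.89 and -1.97 in BT474-Var4 cells. It passed in no comparison, with 0.14 (95% confidence interval -0.11 to 0.40, adjusted p = 0.285) between the populations.

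PROM1 was not measurable. Its probe A_33_P3389842 read -4.67 and -4.37 in Control, -6.02 and -6.13 in BT474-Var1, and -5.16 and -5.47 in BT474-Var4 cells, and was not well above background on any of the 6 arrays. The groups did not overlap, but since all lay below background no fold or test is given, and a difference in PROM1 RNA was not detectable here.

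Between BT474-Var4 and BT474-Var1 cells, 3 member probes (SOX2, KLF5 and CD44) passed higher in BT474-Var4 beside 20.4% of all tested probes, 2 (POU5F1 and NANOG) passed lower beside 20.8%, and 1 (NANOG) passed with a fitted difference of 2-fold or more beside 6.86%. Without NANOG, 1 member probe passed lower and no other member reached 2-fold. The median difference of the 10 probes was 0.19, and that of all tested probes was -0.03. None of these 5 calls was kept without BT474-Var1 A, BT474-Var4 A or BT474-Var4 B, where 5, 5 and 4 member probes had an unadjusted p under 0.05 in limma and 23.9%, 27.5% and 23.5% of all tested probes passed.

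The tested probes with a gene symbol whose profile over the 6 arrays was most like that of SOX2 were those of COCH, DCDC2 and UGT3A2, by the root mean square difference of mean-centered log2 values. The difference was 0.14, 0.15 and 0.16 among 23327 candidate probes. DCDC2, for example, read 1.40 and 1.33 in Control, -0.52 and -0.27 in BT474-Var1, and -0.27 and -0.35 in BT474-Var4 cells. The nearest to NANOG were HSD17B3 (0.14), PPARG (0.15) and ZNRF2 (0.16), whose readings of -5.11 to -2.19 lay, like those of NANOG, close to background on several arrays.

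The wider pluripotency network was described by a list of 40 other genes, with 1 probe per gene. For 13 of them no probe was well above background on any array, among them LIN28B, DPPA4, ZFP42 and TDGF1, which mark undifferentiated cells, and 20 were tested. Against Control, 2 passed higher and 8 lower in BT474-Var1 (beside 14.1% and 20.3% of all tested probes), and 2 higher and 6 lower in BT474-Var4 cells (beside 9.87% and 14.3%). Without Control A, 4 and 2 genes passed, and with the other arrays left out in turn 5 to 9 and 5 to 7 passed. The median was -0.28 and -0.17 (-0.25 and -0.17 with genes below background at their bound), beside -0.04 and -0.08 over all tested probes. DNMT3B, a de novo DNA methyltransferase, fell by 0.67 and 0.75 (adjusted p = 0.00413 and 0.00428), and SALL4, a zinc finger factor of the POU5F1 circuit, by 0.75 and 0.82 (adjusted p = 0.011 and 0.0134). GAL, a neuropeptide gene, fell by 1.48 and 1.02 (adjusted p = 0.00269 and 0.00412). TERT, the catalytic subunit of telomerase, rose by 1.26 and 0.94 (adjusted p = 0.00269 and 0.00343). DPPA3, an early germ cell gene that was not above background in Control or BT474-Var4 cells, exceeded Control in BT474-Var1 cells by at least 1.85-fold (adjusted p = 0.00606) and BT474-Var4 by at least 1.33-fold (adjusted p = 0.00418). It entered the test through its BT474-Var1 arrays alone, so that these differences and its place in the counts were partly set by the filter. FOXD3 fell by 1.76 in BT474-Var4 cells (adjusted p = 0.00546), where it was well above background on 1 array, and was also lower there than in BT474-Var1 cells (-1.34, adjusted p = 0.00441). LEFTY1, a NODAL inhibitor that was well above background on 1 BT474-Var1 array, was 1.37 higher (adjusted p = 0.022) and ETV4 at least 1.73-fold higher (adjusted p = 0.039) in BT474-Var4 than BT474-Var1 cells. In this comparison 6 list genes passed higher and 4 lower, beside 20.4% and 20.8% of all tested probes. Without Control A the falls of FOXD3 and GAL against Control in BT474-Var4 cells did not pass (adjusted p = 0.0537 and 0.0512), LEFTY1 did not pass without any 1 array of the 2 populations (up to 0.0976), and ETV4 passed in 5 of 14 alternatives (adjusted p up to 0.27). DNMT3B and SALL4 were chosen after their values were seen.

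**Figure D4:**
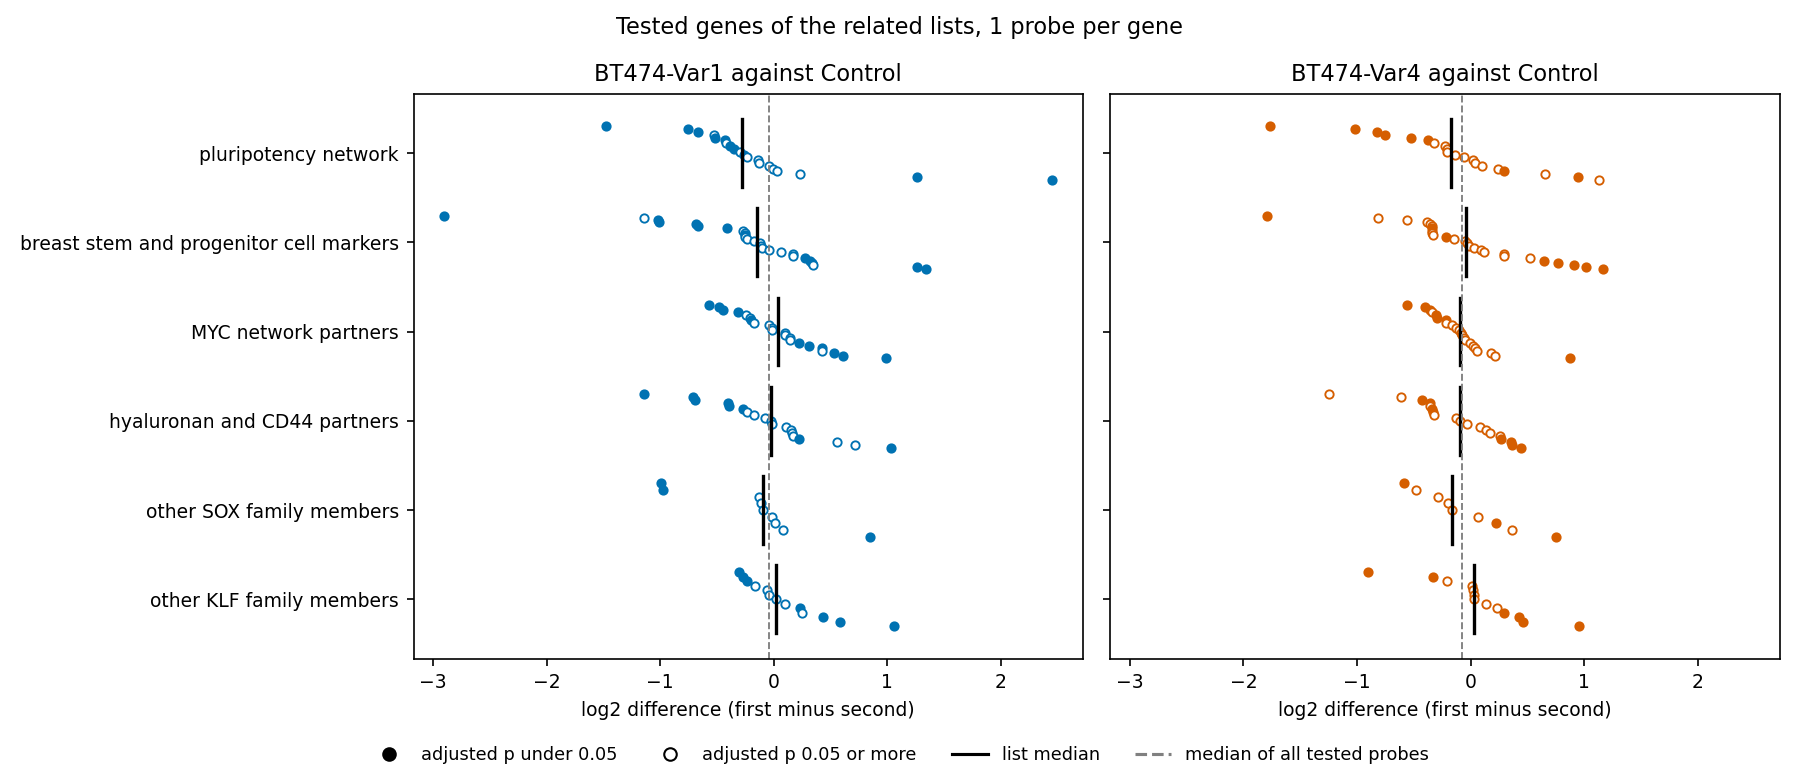
Log2 differences against Control (x axis) of the tested genes of 6 related lists (rows), 1 probe per gene, in BT474-Var1 (left) and BT474-Var4 cells (right). Filled points passed an adjusted p of 0.05, black lines are list medians and the dashed line is the median of all tested probes (-0.04 and -0.08); the pluripotency network had medians of -0.28 and -0.17.

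Of 34 breast stem and progenitor cell markers, 26 were tested. Against Control, 5 passed higher and 7 lower in BT474-Var1 (beside 14.1% and 20.3% of all tested probes), and 5 higher and 4 lower in BT474-Var4 cells (beside 9.87% and 14.3%). The medians were -0.15 and -0.04. Without Control A, 4 and 1 genes of the list passed, and 6 to 11 and 3 to 6 with the other arrays left out in turn. CXCR4, a chemokine receptor, was 1.27 higher in BT474-Var1 cells than in Control (adjusted p = 0.00233) and 1.24 lower in BT474-Var4 than BT474-Var1 cells on the log2 scale (adjusted p = 0.0012). ALDH1A3, an aldehyde dehydrogenase behind the stem cell enzyme assay, rose by 1.16 in BT474-Var4 cells (adjusted p = 0.00368) and was 1.57 higher than in BT474-Var1 cells (adjusted p = 0.0012), while its dimmer probe differed by -0.57 (adjusted p = 0.204) and -0.07 (adjusted p = 0.852). ITGA6, the integrin CD49f, fell by 1.01 in BT474-Var1 cells (adjusted p = 0.00305), and DNER, a NOTCH ligand, was at least 1.67-fold lower there than in Control (adjusted p = 0.00445) and at least 1.28-fold lower than in BT474-Var4 cells (adjusted p = 0.00345). For the basal keratin KRT14, the probe of higher mean was below background in Control and entered the test through the other groups alone. Its differences from Control and its place in the counts were thus partly set by the filter. That probe exceeded Control by at least 2.43-fold in BT474-Var1 (adjusted p = 0.00484) and by at least 1.94-fold in BT474-Var4 cells (adjusted p = 0.0105). The other KRT14 probe differed by 0.12 and 0.29 (adjusted p = 0.767 and 0.486), and KRT14 had a probe well above background on all 6 arrays. TSPAN8, a tetraspanin, fell by 1.02 and 1.79 (adjusted p = 0.0208 and 0.00902), and ANPEP was lower in BT474-Var4 than BT474-Var1 cells by -1.16 (adjusted p = 0.0236). In BT474-Var4 cells both were well above background on 1 of the 2 arrays. Between the populations 11 list genes passed higher and 4 lower, beside 20.4% and 20.8% of all tested probes. TSPAN8 did not pass in BT474-Var1 cells without any 1 of the BT474-Var1 or Control arrays (adjusted p up to 0.101) or in BT474-Var4 cells without Control A or B (up to 0.0646). For BT474-Var4, KRT14 did not pass with any single Control or BT474-Var4 array left out (up to 0.0717) or with normexp, ANPEP not without BT474-Var1 A or B or BT474-Var4 B (up to 0.103), and DNER not between the populations with normexp (0.142).

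Partners of MYC were expressed throughout, with 22 of the 22 listed genes on the array well above background on all 6 arrays. Of these, 6 passed higher and 5 lower in BT474-Var1 cells (beside 14.1% and 20.3% of all tested probes) and 1 higher and 6 lower in BT474-Var4 cells (beside 9.87% and 14.3%). The medians were 0.04 and -0.09. Without Control A, 1 gene passed in each population, and 4 to 8 and 1 to 4 with the other arrays left out in turn. MAX, the partner MYC needs to bind DNA, differed by -0.21 (adjusted p = 0.0705) and -0.13 (adjusted p = 0.212), and MYCN by -0.17 (adjusted p = 0.316) and 0.04 (adjusted p = 0.849); both were chosen after their values were seen. MXI1, a MAX partner that opposes MYC, was lower in BT474-Var4 than BT474-Var1 cells by -1.29 (adjusted p = 0.00133), and its other probes gave -1.61 and -0.73. Between the populations, 4 of the list passed higher and 9 lower, beside 20.4% and 20.8% of all tested probes.

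Of 19 tested genes of hyaluronan turnover and CD44 partners, 2 passed higher and 6 lower in BT474-Var1 (beside 14.1% and 20.3% of all tested probes). In BT474-Var4 cells 4 passed in each direction (beside 9.87% and 14.3%). The medians were -0.02 and -0.09. In BT474-Var1, 3 genes passed without Control A and 5 to 8 with other arrays left out. In BT474-Var4, 0 passed in limma without Control A, Control B or BT474-Var4 B, where 9, 10 and 10 had an unadjusted p under 0.05, and 2 to 5 passed with the others left out. HYAL1, a hyaluronidase, rose by 1.03 in BT474-Var1 cells (adjusted p = 0.00806, and 0.0621 without Control A) and was at least 2.27-fold lower in BT474-Var4 than BT474-Var1 cells (adjusted p = 0.00336). SLC7A11, the cystine transporter that CD44 variants stabilize, fell by 1.15 in BT474-Var1 cells (adjusted p = 0.00351) and was 1.51 higher in BT474-Var4 than BT474-Var1 cells (adjusted p = 0.00132). TMEM2, a cell surface hyaluronidase, was 1.04 higher in BT474-Var4 than BT474-Var1 cells (adjusted p = 0.0023) and 0.91 higher on its other probe. HAS1, a hyaluronan synthase well above background on 1 BT474-Var4 array, was lower there by -1.16 (adjusted p = 0.0141), which did not pass without BT474-Var1 A or B (up to 0.0731). In all, 6 of the list passed higher and 2 lower between the populations, beside 20.4% and 20.8% of all tested probes.

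Of the other SOX genes 9 were tested, of which 1 passed higher (SOX6, 0.85) and 2 lower (SOX3, -0.98, and SOX11, -0.99) in BT474-Var1 cells, and 2 higher (SOX11, 0.75, and SOX13, 0.22) and 1 lower (SOX15, -0.58) in BT474-Var4 cells. SOX11, a factor of embryonic and neural progenitors, thus lay on opposite sides of Control, and the populations differed by 1.74 (adjusted p = 0.0012). Of 13 other KLF genes tested, 4 passed higher and 3 lower in BT474-Var1 and 4 higher and 2 lower in BT474-Var4 cells. Beside both families, 14.1% of all tested probes passed higher and 20.3% lower in BT474-Var1, and 9.87% and 14.3% in BT474-Var4 cells. Without Control A, 1 KLF gene and 1 other SOX gene passed in BT474-Var1 cells. For BT474-Var4, 0 of either family then passed in limma, where 5 KLF and 2 SOX genes had an unadjusted p under 0.05. With the other arrays left out in turn, 2 to 4 and 2 to 4 KLF genes and 1 to 2 and 1 to 2 other SOX genes passed. KLF10, a TGF-beta-inducible repressor, was 1.06 higher in BT474-Var1 (adjusted p = 0.00385) and 0.96 higher in BT474-Var4 cells (adjusted p = 0.00542). The medians of both families were between -0.17 and 0.03. SOX3, SOX6, SOX13 and SOX15 were named after their values were seen.

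Some markers of other cell types differed from Control. Against Control, 1 and 2 of 4 tested fibroblast genes passed higher in BT474-Var1 and BT474-Var4, as did 2 and 2 of 6 basal genes. KRT14 was among these basal genes in both populations. On the probe used it was below background in Control, so its place in these counts was partly set by the filter. In BT474-Var1, 1 basal gene passed lower. Of all tested probes, 14.1% passed higher and 20.3% lower in BT474-Var1, and 9.87% and 14.3% in BT474-Var4 cells. DCN, a fibroblast marker, exceeded Control in BT474-Var4 cells by at least 7.11-fold (adjusted p = 0.0125) and BT474-Var1 by at least 5.55-fold (adjusted p = 0.0113). It entered the test through its BT474-Var4 arrays alone, so that these differences and its place in the count were partly set by the filter. In BT474-Var4 cells COL1A1 was 1.03 higher than in Control cells (adjusted p = 0.00293). Its readings were 1.17 and 1.12 in Control, 1.46 and 1.50 in BT474-Var1, and 2.19 and 2.17 in BT474-Var4 cells. Probes of high intensity weigh most in the summed levels given below, and in the fibroblast list that was COL1A1. For 6 of the 10 fibroblast markers, COL1A2, COL3A1, COL6A3, LUM, PDGFRA and THY1, no probe was well above background on any array. The log2 of the summed level of the 10 was 1.67 to 1.70 in Control, 1.94 to 1.99 in BT474-Var1 and 2.49 to 2.53 in BT474-Var4 cells, and DCN did not pass with either BT474-Var4 array left out, without Control A against Control (adjusted p up to 0.063) or without BT474-Var1 B between the populations (up to 0.0557). The summed level of the 10 basal and myoepithelial markers was 2.96 to 2.98, 2.64 to 2.68 and 3.35 to 3.43. EGFR rose by 1.61 in BT474-Var1 cells (adjusted p = 0.00445) and was lower in BT474-Var4 than BT474-Var1 cells by -1.25 (adjusted p = 0.00435), where its other probe differed by -1.03 (adjusted p = 0.0904). OXTR was 1.57 higher in BT474-Var4 than Control cells (adjusted p = 0.00293) and 1.68 higher than in BT474-Var1 cells (adjusted p = 0.0012), as was CDH3 by 1.01 (adjusted p = 0.00211). KRT5, ACTA2 and CNN1 were not above background on any array. Of the 15 luminal markers 4 passed higher and 5 lower in BT474-Var1 and 1 higher and 6 lower in BT474-Var4, and PGR and TFF1, both estrogen-responsive, fell by 1.22 and 1.03 with variant 4 (adjusted p = 0.00262 and 0.00311), and TFF1 was lower than in BT474-Var1 cells by -1.21 (adjusted p = 0.0012). Their summed level was 11.60 to 11.61 in Control, 11.85 to 11.87 in BT474-Var1 and 11.37 to 11.38 in BT474-Var4 cells. The 3 tested leukocyte genes had medians of 0.12 and -0.08 against Control and the 2 tested endothelial genes -0.57 and -0.08. The summed levels of the leukocyte and endothelial lists ranged from 0.23 to 0.48 and from 0.86 to 1.50, and HLA-DRA, CSF1R, KDR and TEK were not above background on any array. In these bulk RNA samples fewer cells of a kind and less RNA per cell cannot be told apart, and the part of these markers in the results above was not tested.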

How the data were processed

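Cy3-labeled RNA of 6 samples was hybridized, each to its own one-color Agilent array. Spots were quantified by the authors in Agilent Feature Extraction 11.5.1.1, and the deposited intensity values are linear, background-subtracted and without normalization across arrays. The authors also deposited a table of log2 values that had been scaled in GeneSpring by each 75th percentile. The methods name another array design number than the file headers. Each column of the table lay nearest to its own array's scanner values (median absolute difference at most 0.00716 log2), so its scale and direction are known, and its column medians were -3.65 to -3.28.

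Processed intensities were log2-transformed, and the 75th percentile of non-control probes was subtracted within each array. Outlier spots (63 to 128 per array) were left out, spots of a probe were averaged, and 0 spots were saturated. Between 47.6% and 57.5% of the probes were well above background per array. Probes that passed this mark on each array of 1 group or more entered the test. Group means were fitted with limma 3.58.1 (R 4.3.3) over the 6 arrays, with 1.53 prior and 3 residual degrees of freedom, and Benjamini-Hochberg adjustment of the two-sided p-values covered 31858 probes. Precision is limited by the number of arrays. Where a group was below background on both arrays, a fold is written as a bound: the brighter group's mean against the dim group's mean of, per array, the higher of its own value and the lowest value well above background. A and B did not pair arrays (correlations of deviations -0.015 to 0.045). On simulated data with the design of BT474-Var1 against Control and 31807 probes, 86.5% of 200 probes shifted by 2 log2 units were recovered with 5 false calls. That shift was larger than the difference of any member probe, so recovery at the members' sizes was not tested.

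The members were all probes filed under the 10 gene names. From each list, genes past an adjusted p of 0.05 and 2-fold were named, at most 5 per comparison, with the tested probe of highest mean per gene, and the 3 nearest profiles were named for members past both. There are 7 genes that stand in more than 1 list. The members and lists were chosen with earlier results of these data known. Sequences were read from the array files and RefSeq with Python 3.11.15 and pandas 2.3.3. The alternatives of processing were quantile normalization, normexp (offset 50), the deposited table, omission of the filter and a filter that requires all 6 arrays. Those of the fit were A and B as a block, a trended robust fit, a fit of the compared groups alone and contrasts of a one-way analysis of variance. Each array was also left out in turn. The contrasts of the analysis of variance used the unmoderated spread of each probe over the 3 groups, with p adjusted as above. The methods name a one-way analysis of variance and state no adjustment. The alternatives of the list counts and list genes, besides normexp and quantile normalization for the counts, were added after the data were seen.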

Additional observations from a re-analysis of the deposited data

Results flagged for a closer look

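The differences from Control of 5 member probes differed between the populations, by limma's test of BT474-Var4 against BT474-Var1 cells with p adjusted over all tested probes. The log2 difference between the populations was -0.75 for POU5F1, -1.51 for NANOG as fitted, 0.42 for SOX2, 0.27 for KLF5 and 0.28 for CD44, in both arrays of each population. None of the 5 passed without BT474-Var4 A, BT474-Var4 B or BT474-Var1 A. Among list genes named in the report, 19 also differed. Those higher in BT474-Var4 cells were DCN (3.06), DNER (2.52), SOX11 (1.74), OXTR (1.68), ALDH1A3 (1.57), SLC7A11 (1.51), LEFTY1 (1.37), ETV4 (1.18), TMEM2 (1.04) and CDH3 (1.01). Those lower were DPPA3 (-2.52), HYAL1 (-1.39), FOXD3 (-1.34), MXI1 (-1.29), EGFR (-1.25), CXCR4 (-1.24), TFF1 (-1.21), HAS1 (-1.16) and ANPEP (-1.16). The values of DCN, DNER, ETV4, DPPA3 and HYAL1 are fitted differences against a group below background, whose bounds stand in the report. DCN and DPPA3 entered the test through the brighter group alone. Groups of 2 arrays were too small to be searched for outlying arrays.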

How the results depend on the processing

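Of the member probes' differences under the alternatives, 356 kept their direction and side of the threshold, 68 no longer passed, 9 newly passed, 13 changed sign without passing before or after, and no called difference changed sign. The number of member probes that passed, 6 for BT474-Var1 and 3 for BT474-Var4 against Control and 5 between the populations, was 3, 1 and 0 without a filter on dim probes, where 6 of the last had an unadjusted p under 0.05 in limma. It was 3 for BT474-Var1 cells and 2 between the populations under the one-way analysis of variance, where 6 and 7 had an unadjusted p under 0.05. Of all tested probes, 26.3% and 31.3% then passed. For BT474-Var4 cells the number of member probes that passed was 5 with normexp and 5 with the trended robust fit. Of all tested probes, 34.2% and 35.9% passed under these settings. Between the populations the number of member probes that passed was 3 after quantile normalization, beside 38.3% of all tested probes. With each array left out in turn it ranged from 2 to 6, from 0 to 3 and from 0 to 2, and the lone array of a group was then assumed to vary like the others. With A and B as a replicate block it was 5, 3 and 3, beside 27.5%, 15.4% and 35% of all tested probes. The letters do not pair the arrays. The share of all tested probes that passed moved too: without the filter it was 4.60%, 1.24% and 8.81%, and with each array left out 6.46% to 28.7%, 1.91% to 15.1% and 23.5% to 31.6%. The cause of these shifts was not tested. Between the populations, the list counts with each array left out were 6 to 8 (10 with all arrays) for the pluripotency network, 10 to 13 (15) for breast stem cell markers, 7 to 10 (13) for MYC partners, 3 to 5 (8) for hyaluronan genes, 2 to 4 (4) for other SOX and 3 to 4 (5) for other KLF genes. Of the list gene calls at 2-fold or more, 10 of 12 in BT474-Var1 cells, 5 of 10 in BT474-Var4 cells and 13 of 19 between the populations passed under all alternatives run. Probes close to background, such as NANOG, limit what can be measured.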
